A study of Mus musculus with 6 samples.

Results

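The cells described here are CD8 T cells from mouse brain tumors. They carried messenger RNA of Gzmc, Gzmf or both, which encode granzymes C and F, and no RNA of the proliferation gene Mki67. They were selected on measured values. A barcode was kept with at least 5000 gene UMIs (unique molecular identifiers, each marking 1 captured molecule), at most 10% mitochondrial UMIs and an entry in a T cell receptor (TCR) table. It then needed a UMI of Cd8a or Cd8b1, none of Cd4, at least 3 UMIs of Gzmc and Gzmf together and none of Mki67. In all, 182 of 4759 CD8 cells met the rule, among 7847 barcodes within the filters. They are called Gzmc/Gzmf+ cells. They were compared with 1285 CD8 cells that had at least 1 UMI of Pdcd1, the gene of the inhibitory receptor PD-1, and no UMI of Gzmc, Gzmf or Mki67, called Pdcd1+ cells.

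The tumors were intracranial CT2A gliomas, grown from a mouse glioma line, in wild-type C57BL/6J mice aged 6 to 8 weeks, and the labels name no treatment. CD3+ cells were sorted from the tumors at day 13 (the early time point, 16 mice in pools of 4) and day 19 (the late time point, 4 mice). RNA, 138 surface antibody tags and TCR chains were read from the same droplets with 10x Genomics 5' chemistry, in 1 capture per day. With 1 sample per group there is no replicate check and no p-value, day and capture cannot be told apart, and all 95% intervals cover counting error only.

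Granzymes are serine proteases that cytotoxic lymphocytes store in granules and deliver into target cells together with the pore-forming protein perforin. Granzyme B is the main inducer of apoptosis among them. Mice carry further genes beside it on chromosome 14, Gzmc to Gzmg and Gzmn. Gzmc to Gzmg are known to appear in T cells and natural killer (NK) cells after strong or prolonged stimulation. CD8 T cells in tumors are commonly described along a path from a progenitor state, marked by the transcription factor TCF-1 (Tcf7), to terminal exhaustion, marked by receptors such as TIM-3 (Havcr2) and CD39 (Entpd1).

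Gzmc/Gzmf+ cells were 14 of 2959 CD8 cells at day 13 (0.473%, 95% interval 0.259 to 0.793, exact Clopper-Pearson) and 168 of 1800 at day 19 (9.33%, 8.03 to 10.8). The deposited TCR contigs come in 4 tables per day, and the barcodes of 1 table are called a contig set. Each set went with 1 of the 4 multiplexing tags in the matrix: that tag was the highest, without a tie, in 4607 of 4632 barcodes within the filters at day 13 and 2802 of 3215 at day 19. Among Gzmc/Gzmf+ cells this held for 14 of 14 and 132 of 168. The sources used here do not say which pool or mouse a tag or a set stands for, so the sets are a description and not replicates. At day 13 the share ran from 0.303% to 0.633% over the sets, on 2 to 7 cells each. At day 19 it was 10.1% in set 1, 13.5% in set 2, 4.44% in set 3 and 3.78% in set 4, so every day-19 set lay above every day-13 set. Set 2 held 118 of the 168 cells, and the share without it was 5.38%. No Gzmc/Gzmf+ barcode occurred on both days, against 13 of all CD8 barcodes.

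The Gzmc and Gzmf counts chose the cells and are given as a description. At day 19 the median cell carried 38 UMIs of the pair (3 to 2296), with medians of 27 for Gzmf (0 to 1808) and 4 for Gzmc (0 to 1099). In the cell with the largest share, the pair made up 10.5% of all its UMIs. Both genes were seen in 100 of 168 cells, Gzmf alone in 45 and Gzmc alone in 23. Across the 168 cells the Spearman rho of Gzmc and Gzmf was 0.08 in CPM, a gene's UMIs scaled to 1 fixed total of gene UMIs. Both values share a cell's depth. The rule chose the cells on the sum of these genes, so the value cannot show how the genes relate. At day 13 the median was 4 UMIs (3 to 59), 10 of the 14 cells had Gzmc alone, and no cell had more than 6 UMIs of Gzmc. The few day-13 cells with Gzmf held up to 58 UMIs of it.

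**Figure D1:**
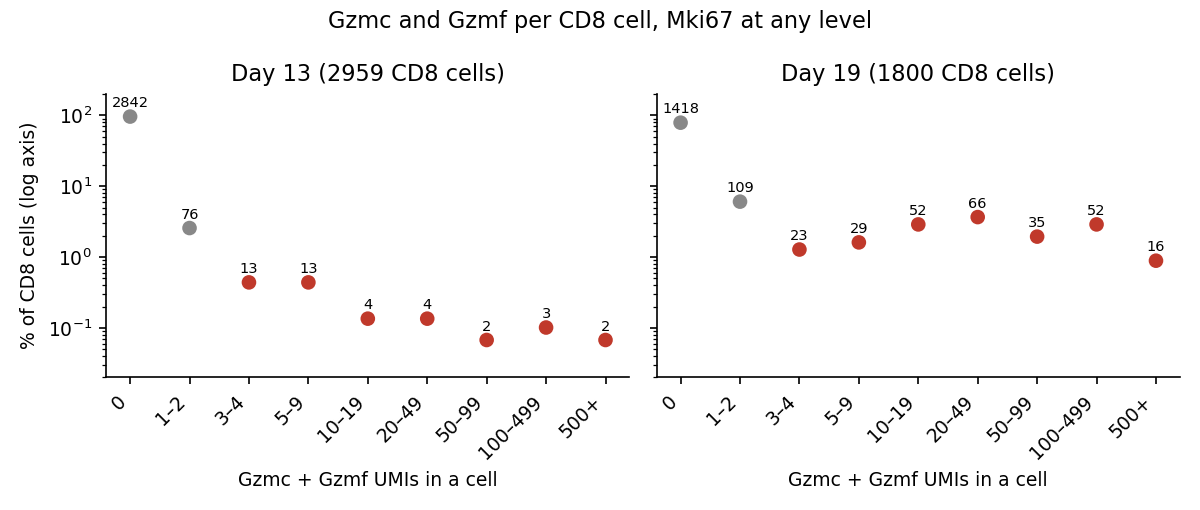
Percent of CD8 cells (log axis, number of cells above each point) by UMIs of Gzmc and Gzmf together, at day 13 (2959 cells) and day 19 (1800 cells), whatever their Mki67. Grey points lie below the minimum of 3 UMIs; at day 19 the cells at or above it reach past 500 UMIs, while most CD8 cells, 1418, have none.

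Few day-19 cells sat at the threshold. Just inside it, 8 of the 168 cells had 3 or 4 UMIs, against 117 with 20 or more, and just outside it 109 CD8 cells of any Mki67 had 1 or 2. At day 13, 8 of 14 cells had 3 or 4 UMIs, 2 had 20 or more, and 76 CD8 cells had 1 or 2. Droplets with under 100 UMIs, taken as free RNA, held the pair at 334 CPM at day 19 and 21.98 CPM at day 13. If every UMI of a median Gzmc/Gzmf+ cell came from free RNA, it would hold 4.15 of them at day 19 and 0.229 at day 13. At least 3 UMIs were found in 5 of 794 CD4 T cells at day 19 (0.630%) and 2 of 797 at day 13 (0.251%), at a median depth of 10542.5 and 8492 UMIs.

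Gene UMIs numbered 144565182 in the day-13 matrix and 81224453 in the day-19 matrix. Gzmc/Gzmf+ cells were deeper than Pdcd1+ cells, with medians of 12429.5 against 8917 UMIs at day 19 and 10399.5 against 7898 at day 13. Median mitochondrial shares were 0.862% against 0.905% at day 19 and 0.832% against 0.844% at day 13. The 5 T cell markers summed to 4736 CPM in day-19 Gzmc/Gzmf+ cells and 3989 CPM in Pdcd1+ cells. The 5 NK cell markers summed to 77.6 CPM against 41.0 CPM, most of it Klrb1c at 62.7 against 19.7 CPM. Eomes was at 10.7 against 19.5 CPM, Klra4 was at 0 in both classes, Klra8 had 1 UMI against 7 and Ncr1 9 against 1. The part of NK cell RNA in the differences below was not tested. The 10 macrophage markers summed to 1619 CPM against 3143 CPM at day 19, and to 65.0 against 2058 CPM at day 13. The summed RNA was thus lower in Gzmc/Gzmf+ cells on both days. Per cell the medians were equal, at 1 UMI in both classes at day 19 and 0 at day 13. Single cells held up to 645 UMIs against 823 at day 19, and up to 6 against 684 at day 13. The part of macrophage RNA in the differences below was not tested, but each was recomputed without barcodes that held 5 or more UMIs of these markers. Of the 3 further genes named as marking these cells with results known, Gzmd and Klra5 were higher and Ppp2r2c was not, at 20.04 against 18.6 CPM, higher in 1 of 4 sets.

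Day-19 differences were read from summed UMIs as log2 ratios of CPM. A gene counts as called at 2-fold or more, among genes whose 2 sums held at least 100 UMIs together. Of 6463 genes tested, 46 were called higher in Gzmc/Gzmf+ than in Pdcd1+ cells (0.712%) and 296 lower (4.58%), and the median log2 ratio of all genes tested was -0.10. A gene that reached 100 UMIs through 1 class alone, and would not have at equal levels, could be called in 1 direction only. This held for 19 of the 46 and 159 of the 296. Genes named by rank had to go the same way in sets 1 and 2, the sets with at least 20 cells of each class. For them a count of 4 of 4 sets leaves only sets 3 and 4 free, which held 16 and 14 Gzmc/Gzmf+ cells. For some genes the set values of the classes did not overlap, and the share of the 6463 genes for which this held is not given. Without set 2, 32 genes were called higher and 120 lower. Without barcodes that held 5 or more UMIs of macrophage markers, the counts were 35 and 179. Both counts also fell against Pdcd1+ cells with Havcr2 and in clones that held both classes, on fewer cells, as given below. Of the other 5 granzymes of the chromosome 14 array, Gzmb was called higher. Gzmd, Gzme and Gzmg were among the 19, with 401 against 11, 317 against 2 and 221 against 0 UMIs, and are given as levels.

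Gzmb was the abundant one. It was at 4189 CPM in Gzmc/Gzmf+ cells and 1224 CPM in Pdcd1+ cells, a log2 ratio of 1.78 (95% interval 1.73 to 1.82). By set the pairs of values were 2358 and 562 CPM, 4260 and 1085, 5058 and 1755, and 5208 and 1270. The Gzmc/Gzmf+ value was the higher one within each set, and the lowest of the 4 lay above the highest Pdcd1+ value. After each cell was thinned to 5000 UMIs, 95.2% of Gzmc/Gzmf+ cells had a Gzmb UMI against 61.7% of Pdcd1+ cells and 33.5% of CD4 T cells; unthinned, these were 99.4%, 67.1% and 39.2%. Gzmb lies at the end of the array, at chr14:56258836-56262334 in RefSeq's GRCm38.p6, next to Gzmc (chr14:56231397-56241647) and Gzmf (chr14:56205263-56211407).

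Gzmd, Gzme and Gzmg lie on the far side of Gzmf, with Gzmn between. Their sums were high in Gzmc/Gzmf+ cells but came from few cells. Gzmd was at 171 CPM against 2.52, Gzme at 135 against 0.459, and Gzmg at 94.2 against 0, and Gzmn had no UMI in either class. Gzmd was seen in 8 of 168 cells, Gzme in 9, Gzmg in 5, any of them in 14 (8.33%, 4.63 to 13.6), and all 3 in 3 cells. The 4 cells with the most held 894 of the 939 UMIs. These cells were also rich in the selecting genes: any of the 3 was seen in 0 of 51 cells with 3 to 19 UMIs of Gzmc and Gzmf, in 5 of 72 cells with 20 to 99, and in 9 of 45 with 100 or more. Among Pdcd1+ cells 1 of 426 had any. The array holds close paralogs, and the sources used here do not say how the authors' counting assigned reads that fit several of them, so levels of Gzmc to Gzmg relative to each other are uncertain.

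Among the other cytotoxic genes, 1 of 13 tested was called higher and none lower, with a median log2 ratio of 0.11. That gene was Gzma, encoding granzyme A, at 1206 against 595 CPM (log2 ratio 1.02, 0.94 to 1.10). It was uneven: 39 of 168 cells had a UMI, set 3 went the other way at 40.3 against 191 CPM, and with 1 cell per clone the ratio was -0.01. Prf1, encoding perforin, was at 276 against 163 CPM (0.76, 0.61 to 0.92), short of 2-fold, and its excess was 613 against 111 CPM in set 4 but none, 333 against 335, in set 3.

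Beyond granzymes the largest excess among well-covered genes was in Ifitm1, which encodes an interferon-inducible membrane protein that restricts virus entry. It was at 5429 against 1310 CPM (2.05, 2.01 to 2.10). By set the values were 3811 and 740 CPM, 6690 and 2004, 1801 and 533, and 3642 and 869, higher in Gzmc/Gzmf+ cells within each set while set 3 of them lay below set 2 of the Pdcd1+ cells. After thinning, 86.3% of Gzmc/Gzmf+ cells had an Ifitm1 UMI against 35.7% of Pdcd1+ cells and 17.8% of CD4 T cells. Ifitm2, a close paralog, was at 1097 against 411 CPM (1.42, 1.33 to 1.503), higher in 4 of 4 sets.

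The other interferon-inducible genes went the other way. Of a list of 7, none was higher and 5 were called lower, with a median of -1.39. Irf7, a transcription factor of the interferon response, was at 170 against 476 CPM (-1.48), Gbp2, a guanylate-binding protein of host defence, at 40.9 against 140 CPM (-1.77), and Ifit3 at 52.0 against 171 CPM (-1.72), each lower in 4 of 4 sets. Isg15, a ubiquitin-like modifier, was at 266 against 573 CPM (-1.11), lower in 3 of 4 sets and higher in set 1, at 255 against 146 CPM. Its ratio fell short of 2-fold without set 3 (-0.94), but not without set 1 (-1.21) or set 2 (-1.20). In the mean of the ratios of sets 1 and 2 its sign changed. The chemokine Cxcl10 was at 10.2 against 110 CPM (-3.42, -4.08 to -2.83), lower in 4 of 4 sets and among the 159.

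NK receptors and their adaptors were next: 4 of 11 tested were called higher and none lower, with a median of 0.59. Fcer1g, the signalling adaptor FcRgamma, was at 2021 against 923 CPM (1.13, 1.07 to 1.19), with 1635 and 703 CPM in set 1, 2143 and 1026 in set 2, 2441 and 832 in set 3, and 1256 and 894 in set 4. The Gzmc/Gzmf+ values lay above all Pdcd1+ values. After thinning, 92.3% of Gzmc/Gzmf+ cells had a UMI of Fcer1g against 51.9%. Klrb1c, encoding NK1.1, was at 62.7 against 19.7 CPM (1.67, 1.28 to 2.07), higher in 3 of 4 sets, and 63 of 168 cells had a UMI. Klra5, of the Ly49 receptor family, was at 71.6 against 21.1 CPM (1.76, 1.39 to 2.15), higher in 3 of 4 sets, but only 33 of 168 cells had a UMI and set 2 held most of its level, at 98.6 CPM. The Ly49 genes are close paralogs too. Styk1, a kinase-like NK receptor, was at 33.3 against 12.2 CPM (1.45, 0.93 to 1.98), higher in 4 of 4 sets and among the 19. Tyrobp, the DAP12 adaptor, was at 235 against 356 CPM and not called.

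**Figure D2:**
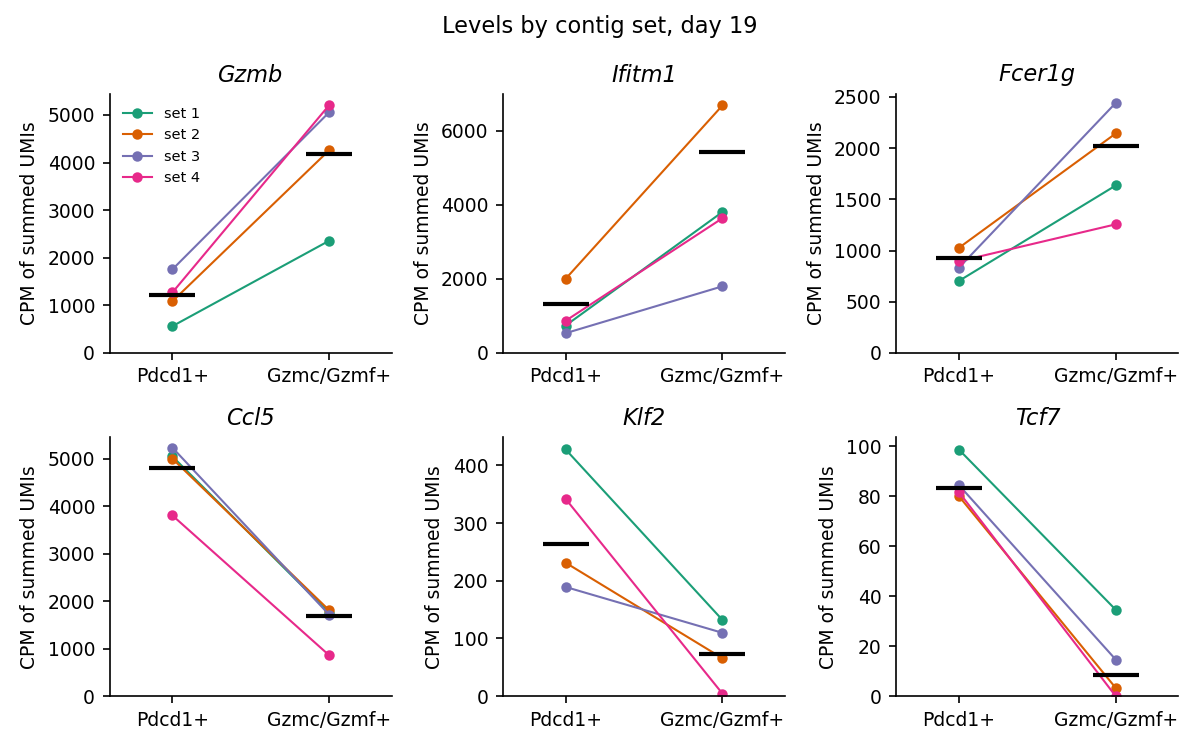
CPM of summed UMIs by contig set at day 19 in Gzmc/Gzmf+ cells and Pdcd1+ cells for 6 genes, with a line joining the values of 1 set and a black bar for all sets together. Gzmb and Fcer1g are higher in Gzmc/Gzmf+ cells in each of the 4 sets, and Klf2 and Tcf7 are lower in each.

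The remaining genes named by rank as higher were Mt1, Ly6g5b, Rhoq, P2ry14 and Ccl1. Their direction in sets 1 and 2 was a condition of the rank. Mt1, a metallothionein that binds zinc, was at 305 against 95.6 CPM (1.68, 1.499 to 1.85), higher in 4 of 4 sets. Ly6g5b (1.497), the small GTPase Rhoq (1.45) and the purinergic receptor P2ry14 (1.38) lay at 75.1, 34.97 and 34.1 CPM, each higher in 4 of 4 sets. Rhoq, P2ry14 and Ccl1 were among the 19. Ccl1, a chemokine, had a log2 ratio of 3.35, but 67 of its 104 UMIs came from 1 cell. In the list of metallothionein, glycolysis and hypoxia genes, 2 of 7 tested were called higher (Mt1 and Bnip3, a mitophagy receptor, 1.09), none was lower and the median was 0.35.

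Several progenitor genes were lower. Of 9 tested none had a positive ratio and 5 were called lower, with a median of -1.06, but 3 of the 5, Tcf7, Slamf6 and Lef1, reached 100 UMIs through the Pdcd1+ cells alone and could only be called lower. The count and median are therefore no support for the direction, and the levels are given. Tcf7 was at 8.53 against 83.2 CPM (-3.29, -4.01 to -2.64), with sets at 34.6 and 98.7 CPM, 3.29 and 80.1, 14.6 and 84.5, and 0 and 81.7. Every Gzmc/Gzmf+ value lay below every Pdcd1+ value. Only 6 of 168 Gzmc/Gzmf+ cells had a UMI, and after thinning the share was 2.38% against 21.6%. Slamf6, a receptor that marks progenitors, was at 2.56 against 29.3 CPM (-3.52), and Lef1, a partner of TCF-1, at 8.53 against 31.6 (-1.89), each lower in 4 of 4 sets. Ccr7, a chemokine receptor that guides T cells to lymph nodes, was at 50.7 against 298 CPM (-2.55), although 340 against 378 CPM in set 1, and 62 of the 119 UMIs in Gzmc/Gzmf+ cells came from 1 cell. Xcl1, a chemokine that attracts dendritic cells, was at 110 against 229 CPM (-1.06) but higher in set 3, at 216 against 79.4 CPM.

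Genes of tissue egress were lower with them. Klf2, the transcription factor that drives expression of S1pr1, was at 73.8 against 264 CPM (-1.84, -2.08 to -1.61), and S1pr1, the receptor that guides T cells out of tissue, at 2.13 against 24.8 CPM (-3.54), both lower in 4 of 4 sets. In the residency and egress list 4 of 10 tested were called lower and none higher, with a median of -0.71; of the 4, S1pr1 and Itgae reached 100 UMIs through the Pdcd1+ cells alone. Besides Klf2 and S1pr1, the genes called lower were Itgae and Ahr. Itgae, the CD103 integrin chain of resident cells, was at 9.81 against 25.4 CPM but higher in set 3. Ahr, the aryl hydrocarbon receptor, was at 16.2 against 33.2 CPM. As background, Itgae and Ahr go with residency and Klf2 and S1pr1 with egress. Cd69, an early activation and retention marker, was at 177 against 297 CPM (-0.75), not called.

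The other low-ranked genes were the lymphocyte receptor Slamf1 (-3.23), Thada (-3.09), the chemokine receptor Cxcr4 (-3.09), Dapl1 (-2.85), the transcription factor Maf (-2.75) and Fam241a (-2.74), at 2.56 to 8.10 CPM in Gzmc/Gzmf+ cells and each lower in 4 of 4 sets. All 6 reached 100 UMIs through the Pdcd1+ cells alone, so they could appear only as lower. Agreement of sets 1 and 2 was again a condition of the rank. Sct, encoding the hormone secretin, was at -3.77 through set 4, and without that set at 1.70; 1 Pdcd1+ cell held 115 of the 152 UMIs of its class.

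The terminal exhaustion list moved little as a whole. Of 15 genes tested, 2 were called higher and 1 lower, with a median of 0.03 against -0.10 for all genes. Tnfrsf9, the co-stimulatory receptor 4-1BB, was at 676 against 325 CPM (1.06, 0.95 to 1.16), with 553 and 167 CPM in set 1, 679 and 327 in set 2, 644 and 419 in set 3, and 867 and 294 in set 4. Every Gzmc/Gzmf+ value lay above every Pdcd1+ value, and the thinned shares of cells with a UMI were 88.7% and 47.9%. Cd244a, the receptor 2B4, was at 80.2 against 38.3 CPM (1.07, 0.76 to 1.38), higher in 4 of 4 sets. Cd160, a receptor of activated and NK-like T cells, was at 34.97 against 103 CPM (-1.56, -1.92 to -1.22), lower in 4 of 4. Havcr2 (123 against 79.8 CPM, 0.62) and Entpd1 (137 against 89.2 CPM, 0.62) were higher in 4 of 4 sets but short of 2-fold. Lag3, an inhibitory receptor, was at 453 against 425 CPM (0.09), and Tox, the transcription factor of the exhausted state, at 68.2 against 116 CPM (-0.77). Pdcd1 was used to pick the Pdcd1+ cells and is a description only: 157 of 168 Gzmc/Gzmf+ cells had a UMI.

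**Figure D3:**
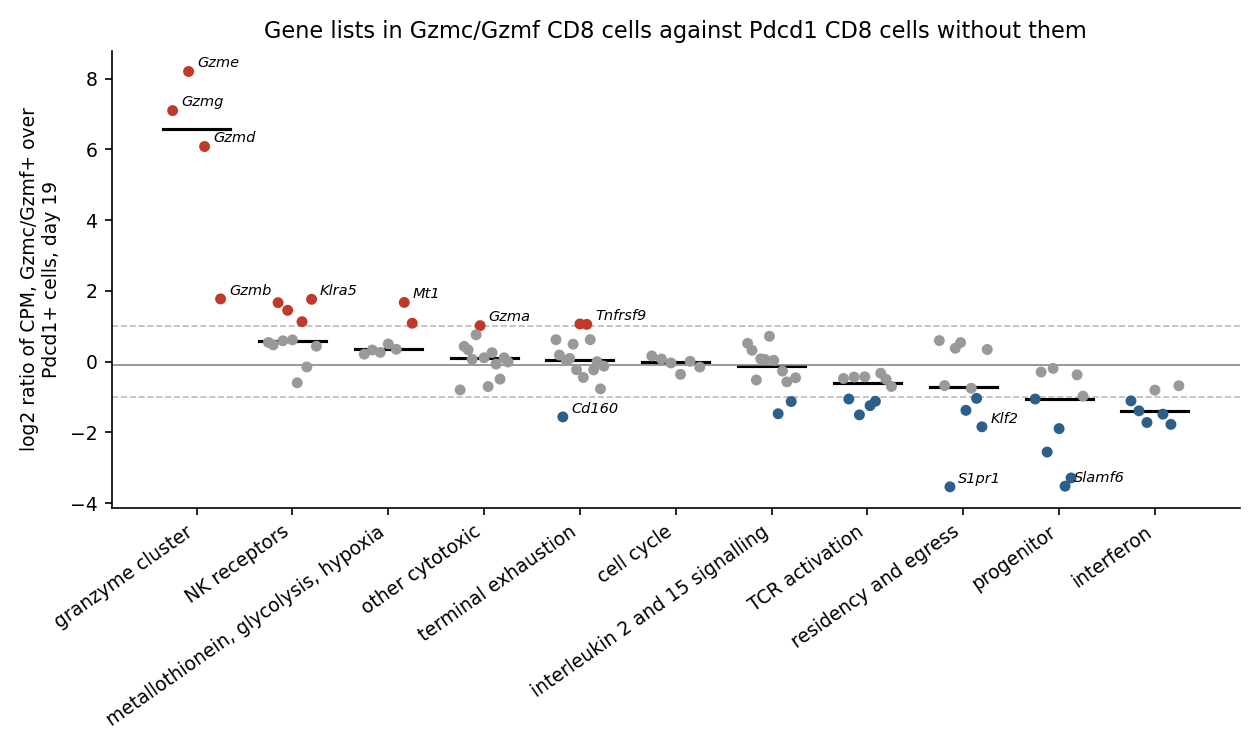
Log2 ratio of CPM, Gzmc/Gzmf+ over Pdcd1+ cells at day 19, for each tested gene of 11 lists (points) with the median of each list (bar); the dashed lines mark 2-fold and the grey line the median of all genes tested. The tested genes of the granzyme cluster, Gzmg at its bound, lie above the upper dashed line. The medians of the progenitor and interferon lists lie below the lower one, and the terminal exhaustion list lies on both sides of 0. Gzmd, Gzme and Gzmg reached the UMI minimum through Gzmc/Gzmf+ cells alone, and Tcf7, Slamf6 and Lef1 through Pdcd1+ cells alone. These genes could lie only on the side shown, which is no support for their direction.

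Of 10 tested genes induced by TCR signalling, 4 were called lower, none had a positive ratio and the median was -0.60. Ccl5, a chemokine of effector T cells, was at 1694 against 4802 CPM (-1.503, -1.55 to -1.45), with 1751 and 5044 CPM in set 1, 1806 and 4996 in set 2, 1713 and 5229 in set 3, and 859 and 3802 in set 4. The groups did not overlap. Ccl3 (-1.24) and Ccl4 (-1.06), related chemokines, and Fos (-1.12), an immediate-early gene, were the others. Of 12 tested genes of interleukin 2 and 15 signalling, 2 were called lower, Socs3 (-1.47) and Stat5a (-1.13, among the 159), and none higher, with a median of -0.11. Of 6 cell cycle genes other than Mki67 none was called in either direction, with a median of -0.01; Mki67 at 0 was required of both classes.

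Cells excluded for Mki67 alone were common. Among CD8 cells with at least 3 UMIs of Gzmc and Gzmf, 105 of 273 (38.5%, 32.7 to 44.5) carried Mki67 at day 19 and 27 of 41 (65.9%, 49.4 to 79.9) at day 13. Among CD8 cells with Pdcd1 and neither granzyme these shares were 180 of 606 (29.7%) and 283 of 1142 (24.8%). Cells with Mki67 were deeper, with medians of 19760 UMIs at day 19 and 26361 at day 13 in the granzyme-positive ones, and a deeper cell passes any UMI minimum more easily. At day 13, Gzmd, Gzme or Gzmg appeared in 5 of 27 of the Mki67-positive cells and in 0 of the 14 Gzmc/Gzmf+ cells, with an upper bound of 23.2% for the latter.

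Levels of several unselected genes were read over 6 classes of day-19 CD8 cells without Mki67: 709 cells with neither granzyme nor Pdcd1, the 426 Pdcd1+ cells, 66 cells with 1 or 2 UMIs, 51 with 3 to 19, 72 with 20 to 99, and 45 with 100 or more. The first and second classes both have no UMI of the 2 granzymes and differ in Pdcd1, and from the second on the classes are ordered by the amount of Gzmc and Gzmf. In that order Gzmb was at 520, 1224, 1641, 2727, 3531 and 6076 CPM. Ifitm1 was at 77.3, 1310, 1639, 3856, 5195 and 6900 CPM. Fcer1g was at 460, 923, 1114, 1586, 1890 and 2506 CPM. All 3 genes were higher in each class than in the one before it. Tcf7 was at 230, 83.2, 85.3, 18.2, 2.12 and 8.78 CPM, lower in every class with 3 or more UMIs than in the classes with fewer. Lag3 was at 56.1, 425, 441, 490, 535 and 329 CPM, and Tox at 28.4, 116, 72.4, 109, 71.2 and 33.9 CPM, so both were lowest, among the classes with Gzmc or Gzmf, where the 2 granzymes were highest. Gzmd was at 0, 2.52, 0, 0, 6.37 and 495 CPM. Median depth rose along the classes from 7428 to 15110 UMIs. Among the 168 cells the rank correlation with the summed level of Gzmc and Gzmf was 0.29 for Gzmb, 0.32 for Ifitm1, 0.33 for Fcer1g, 0.02 for Prf1 and -0.22 for Tox (Spearman, n = 168 cells of 1 capture that share their depth, as a description).

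**Figure D4:**
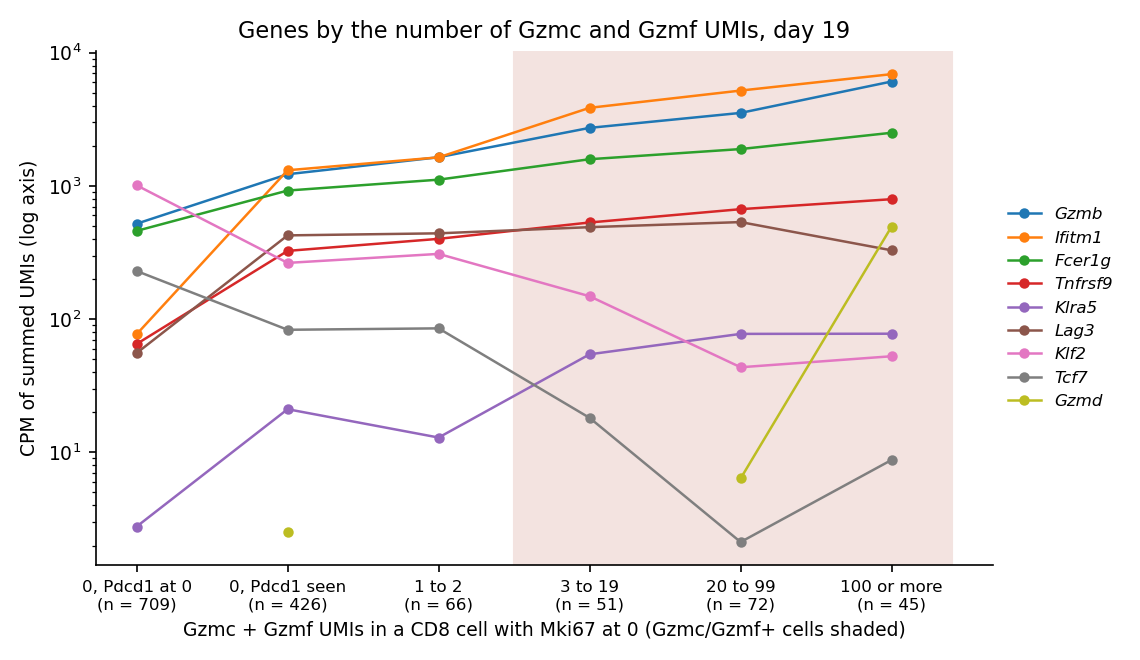
CPM of summed UMIs (log axis) at day 19 in 6 classes of CD8 cells without Mki67, ordered from the second on by UMIs of Gzmc and Gzmf; the first and second have none and differ in Pdcd1. Gzmb, Ifitm1 and Fcer1g are highest in the class with 100 or more UMIs, Tcf7 and Klf2 are low there, and Lag3 is lower in it than in the class with 20 to 99. Shading marks Gzmc/Gzmf+ cells, and a level of 0 has no point.

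At day 13 the 14 cells gave few UMIs, and called genes were common: 322 of 7006 tested were higher (4.6%) and 855 lower (12.2%). Of these, 12 of the 322 and 450 of the 855 reached 100 UMIs through 1 class alone. Without each gene's barcode with the most UMIs in either class, 55 were higher and 1663 lower. Leaving out 1 of 14 cells takes more from a class than leaving out 1 of 859, so the group sizes set part of this shift. Ifitm1 ranked first, at 1697 against 202 CPM (3.07, 2.88 to 3.26), higher in 4 of 4 sets but with a UMI in 5 of 14 cells. Xcl1 followed the opposite direction to day 19, at 1118 against 193 CPM (2.54); 90 of its 172 UMIs came from 1 cell, and with at least 5 UMIs of Gzmc and Gzmf required the ratio was -0.40. The NK receptors Klre1 (195 against 33.3 CPM, 2.55) and Klra7 (143 against 26.9 CPM, 2.41), and the amidase Naaa (78.0 against 11.7 CPM, 2.74), rested on 30, 22 and 12 UMIs, the last all from 1 cell. Of the 22 UMIs of Klra7, 18 came from 1 cell, and the cells that also had Pdcd1 held none. The lowest were macrophage genes, Lyz2 (-6.02), C1qa (-5.63), C1qc (-5.28) and C1qb (-4.74) at 1 or 2 UMIs each and Apoe at 0 UMIs, at least 25.4-fold lower with the 0 set to 3 counts over the group. Those at 0 or 1 UMI were among the 450 and could appear only as lower. Gzmb was at 2327 against 1922 CPM (0.28), seen in all 14 cells and in 637 of 859 Pdcd1+ cells. Ccl5 was at 1177 against 9090 CPM (-2.95), lower in 4 of 4 sets as at day 19. Of the other cytotoxic genes 2 of 13 were called lower and none higher, with a median of -0.08. Gzma was at 319 against 666 CPM (-1.06), with 45 of its 49 UMIs in 1 cell and higher in 1 of 4 sets. Gzmk, encoding granzyme K, was at 143 against 362 CPM (-1.34, -2.02 to -0.74) on 22 UMIs, all in set 2. Fcer1g was at 910 against 396 CPM (1.201, 0.95 to 1.45), higher in 4 of 4 sets as at day 19. Of 10 progenitor genes tested at day 13, 2 were called higher and 3 lower, with a median of 0.02. Slamf6, with 1 UMI and among the 450, was at 6.50 against 59.3 CPM, and Tcf7 at 97.5 against 153 CPM (-0.65, -1.49 to 0.08). Prf1 (0.51, -0.33 to 1.25) and Havcr2 (0.66, -0.30 to 1.48) differed by less than counting error.

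The Gzmc/Gzmf+ cells of day 19 were then set against those of day 13. Of 3159 genes tested 183 were called higher at day 19 (5.79%) and 149 lower (4.72%), and 145 of the 183 reached 100 UMIs through the day-19 cells alone. The counts were 481 and 42 without each gene's barcode with the most UMIs, where the same holds for 14 against 168 cells, and 44 and 38 with 1 cell per clone and class. The same ratio in Pdcd1+ cells is given beside each gene. In Pdcd1+ cells, 98 of 8119 genes tested were called higher at day 19 and 156 lower. Of 8 NK receptors tested 2 were called higher, with a median of 0.35. They were Fcer1g, at 2021 CPM at day 19 against 910 at day 13 (1.15, 0.91 to 1.404; 1.22 in Pdcd1+ cells), and Klra5, which like Mt1 was among the 145. The terminal exhaustion list had 5 of 13 genes called higher and none lower, with a median of 0.65, against 2 of 15 and a median of 0.47 in Pdcd1+ cells. Of the 5, Tox and Cd244a were among the 145, and the others were Tnfrsf9, Lag3 and Tigit, an inhibitory receptor (1.18 against 0.54). The interferon list had 5 of 6 called lower, with a median of -1.92, against 5 of 7 and a median of -1.24 in Pdcd1+ cells. Gzmb was at 2327 CPM at day 13 and 4189 at day 19 (0.85), short of 2-fold, while in Pdcd1+ cells it was lower at day 19 (-0.65). Gzma was higher (1.92 against -0.16), with 45 of its 49 day-13 UMIs in 1 cell, and so were Prf1 (1.503 against 1.25), Tnfrsf9 (1.57 against 1.03) and Lag3 (1.32 against 0.46). Mt1 differed by 2.97 against 0.70, Ifitm1 by 1.68 against 2.697 and Klra5 by 3.46 against 3.48. At day 13 Mt1 rested on 6 UMIs and Klra5 on 1, each from 1 of the 14 cells. Gzmd, Gzme and Gzmg had no UMI in the 14 day-13 cells. At day 19 any of them was seen in 14 of 168 cells (8.33%), while 0 of 14 allows up to 23.2%, so a difference between the days was not detectable at this depth. With the rule applied after thinning to 5000 UMIs, Prf1 was at -0.30.

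The genes that ranked lowest in this comparison were Xcl1 (-3.35 against 0.25 in Pdcd1+ cells), Ms4a4c (-2.90 against -0.80), Isg15 (-2.66 against -1.45), Irf7 (-2.65 against -0.89), Il1b (-2.38 against 0.13) and Gramd3 (-2.22 against -1.10). Some changed sign without set 2: with it left out on both days, Isg15 was at 0.29, Ms4a4c at 1.196 and Il1b at 2.19 or more, with no UMI left at day 13. The sign of Il1b also changed without its barcode with the most UMIs in either class. Without set 2, 89 genes were called higher and 45 lower. The highest ranks were the macrophage genes C1qa (5.51), Lyz2 (5.26), C1qc (5.18), C1qb (4.58), Apoe (at least 20.6-fold) and Spp1 (4.79). They stood at 0 to 2 UMIs in the 14 day-13 cells. All were among the 145 genes that reached the UMI minimum through the day-19 cells alone, and could appear only as higher. At least 5 UMIs of macrophage markers were found in 1 of 14 cells at day 13 and 39 of 168 (23.2%) at day 19, and in 13.6% and 27.7% of Pdcd1+ cells. Without such barcodes, Lyz2 was at -0.51, and Apoe, still at 0 UMIs at day 13, had too few UMIs at day 19 to give a bound. Ccl5 was slightly higher at day 19 (0.53) and lower in Pdcd1+ cells (-0.92).

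The antibody tags, which were not used by the rule, differed little between the classes. By summed tag UMIs at day 19, 5 of 138 tags were called higher at 1.5-fold (3.62%) and 8 lower (5.8%), but most of these sums rested on 1 barcode. CD38 was higher by 3.73 on the log2 scale with 20774 of its 22278 UMIs in 1 cell, and its median was 8 UMIs per Gzmc/Gzmf+ cell and 9 per Pdcd1+ cell. CD93 (3.84, 15819 of 16711 UMIs in 1 cell) and CD274, the ligand PD-L1 (1.28, 2039 of 2763), were alike. CD366, the protein of Havcr2, was at -1.74 through 1 Pdcd1+ cell with 7848 UMIs, and its medians were 7 and 7.5. CD39, the protein of Entpd1, had medians of 41 and 38 UMIs and was higher in 4 of 4 sets (0.34), and CD279, the protein of Pdcd1, had medians of 29.5 and 29. By the mean centred log ratio per cell, a measure that 1 cell cannot carry, no tag was called at 1.5-fold. CD1d (0.30) and CD44 (0.27) were highest and CD5, a negative regulator of TCR signalling, lowest (-0.44), with medians of 3 and 4 UMIs and lower sums in 4 of 4 sets. The tags separated known lineages poorly: the median CD8a tag count was 5 UMIs in CD8 and 5 in CD4 T cells, and that of the IgG1 isotype control was 6.

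Most Gzmc/Gzmf+ cells at day 19 belonged to expanded clones. A clone is a set of CD8 cells of 1 contig set with the same nucleotide sequence of the third complementarity-determining region (CDR3) in both chains, among cells with exactly 1 TRA and 1 TRB chain. Such chains were found in 89 of 168 Gzmc/Gzmf+ cells. Of these, 72 (80.9%, 71.2 to 88.5) were in clones of at least 2 cells, against 152 of 284 Pdcd1+ cells (53.5%, 47.5 to 59.4) and 42 of 500 CD8 cells with neither Pdcd1 nor the 2 granzymes (8.4%, 6.12 to 11.2). The share was 71.4%, 85.7%, 50% and 90.9% in sets 1 to 4 for Gzmc/Gzmf+ cells, on 8 to 56 cells each, and 36.7%, 63.0%, 47.5% and 46.6% for Pdcd1+ cells. It was higher in each set, by the least in set 3. The median cell sat in a clone of 6 cells (1 to 71) against 2. At day 13 the share was 4 of 10 (40.0%, 12.2 to 73.8) against 343 of 634 (54.1%), not distinguishable at this depth.

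The cells were spread over many clones, and most large clones held some. The 89 cells fell into 48 clones, and the 5 clones with the most held 34 of them (38.2%). Of 20 clones with at least 5 CD8 cells, 16 held a Gzmc/Gzmf+ cell, and in 8 at least 50% of the cells, cycling ones included, had 3 or more UMIs of the 2 granzymes. At day 13, 2 of 35 such clones held one. The receptor pair of 25 of the 48 clones was also seen in another contig set of day 19, and that of 3 at day 13. A pair seen in 2 sets counts as 1 clone in each. Some pairs therefore stand for 2 of the 48 clones, and some for 2 of the 16. A second TRA chain was seen in 31.0% of Gzmc/Gzmf+ cells (24.1 to 38.5) against 18.8% of Pdcd1+ cells (15.2 to 22.8); T cells can carry 2 TRA chains, and droplets with more than 1 cell can too, and doublets were not called.

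**Figure D5:**
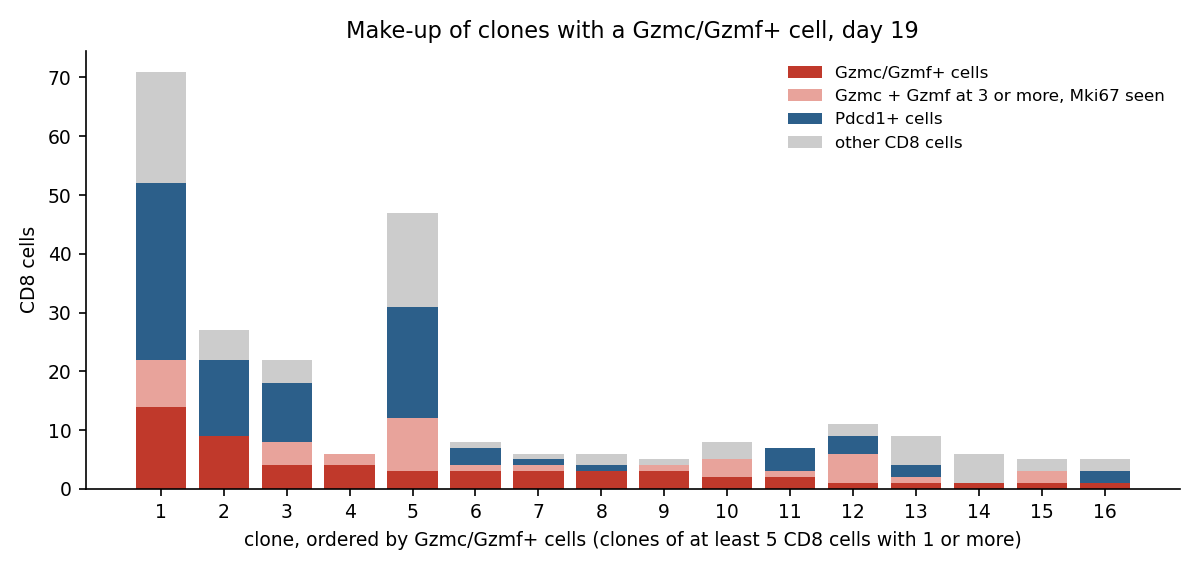
CD8 cells of the 16 day-19 clones with at least 5 CD8 cells and a Gzmc/Gzmf+ cell, split into Gzmc/Gzmf+ cells, Pdcd1+ cells, cells with Mki67 and at least 3 granzyme UMIs, and other CD8 cells. The largest clone holds 71 cells, 14 of them Gzmc/Gzmf+ and 30 Pdcd1+.

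The CDR3 sequences of 4 of these 5 clones are shown because clones with related receptors differed in granzyme level. The clone with the most Gzmc/Gzmf+ cells used TRAV6D-5 with TRAJ27 and TRBV26 with TRBJ1-6, and had 71 cells and 1261 CPM of Gzmc and Gzmf over all its cells. A clone of 6 cells with TRAV7-3 and TRBV5 had at least 3 UMIs in each of its cells, 4 of them Gzmc/Gzmf+ and 2 with Mki67, at 13272 CPM. A pair of clones shared the TRA CDR3, with TRAV7D-2 and TRAJ7, and used TRBV16 with TRBJ2-7. Capitals mark the 13 of 42 TRB bases at which they differ.
TRAV6D-5 clone, TRA: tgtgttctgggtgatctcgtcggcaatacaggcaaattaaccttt
TRAV6D-5 clone, TRB: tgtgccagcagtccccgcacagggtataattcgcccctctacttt
TRAV7-3 clone, TRA: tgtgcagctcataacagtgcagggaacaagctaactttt
TRAV7-3 clone, TRB: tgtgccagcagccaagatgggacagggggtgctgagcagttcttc
TRAV7D-2 clones, shared TRA: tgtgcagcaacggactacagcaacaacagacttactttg
TRAV7D-2 clone of 27 cells, TRB: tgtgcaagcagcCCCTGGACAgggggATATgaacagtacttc
TRAV7D-2 clone of 47 cells, TRB: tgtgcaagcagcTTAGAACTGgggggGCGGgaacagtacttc

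The TRAV7D-2 clone of 27 cells, in set 2, held 9 Gzmc/Gzmf+ and 13 Pdcd1+ cells at 8606 CPM of the 2 granzymes. The clone of 47 cells, in set 3, held 3 Gzmc/Gzmf+ and 19 Pdcd1+ cells at 393 CPM. The shared TRA CDR3 was carried by 76 CD8 cells of day 19, all with TRBV16 and with no further TRB sequence, and by no CD8 cell of day 13, among cells with 1 TRA and 1 TRB chain. The receptor pair of the clone of 47 cells was seen in 2 sets and that of the clone of 27 cells in 1.

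After the values were seen, the comparison was repeated in the 17 day-19 clones that held both classes, with 50 Gzmc/Gzmf+ and 95 Pdcd1+ cells. Some of the 17 have the same receptor pair in different contig sets. UMIs were summed over these clones and not matched by clone, and the clones weigh unevenly: the clone of 47 cells gave 3 of the 50 and 19 of the 95. The count of clones in each direction is therefore given too, though most clones held 1 to 3 cells of a class. Gzmb was at 3181 against 1104 CPM (1.53, 1.42 to 1.63), Ifitm1 at 5030 against 1857 CPM (1.44, 1.355 to 1.52), Fcer1g at 2112 against 1002 CPM (1.08, 0.96 to 1.195) and Ifitm2 at 1209 against 603 CPM (1.00). Gzmb was higher in Gzmc/Gzmf+ cells in 17 of the 17 clones, Ifitm1 and Fcer1g in 13 each and Ifitm2 in 15. Ccl5 (-0.76) was lower in 13 clones, Tox (-1.23) in 11, Ccr7 (-4.63) in 7, Klf2 (-2.39) in 6 and Xcl1 (-5.18) in 5, many clones having no UMI of the last 3. By contrast Tnfrsf9 was at 590 against 531 CPM (0.15, -0.04 to 0.35), Prf1 at -0.15, Havcr2 at 0.04 and Entpd1 at 0.02, so their excess over all Pdcd1+ cells was not seen in these sums. By clone, Tnfrsf9 was higher in 12 and lower in 5, Prf1 higher in 9 and lower in 5, Havcr2 higher in 9 and lower in 7, and Entpd1 higher in 6 and lower in 10. A few progenitor and egress genes had few UMIs in both classes: Tcf7 had 0 UMIs against 12, Slamf6 1 against 4, Lef1 3 against 3 and S1pr1 1 against 1. Against Pdcd1+ cells of any clone that held a Gzmc/Gzmf+ cell, the ratios of Lef1 and S1pr1 were 1.58 and 1.16, on few UMIs.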

How the data were processed

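Per the file headers, Cell Ranger wrote the deposited matrices, whose values are raw counts of UMIs for each feature in every barcode, with no filter on barcodes. Each day also has 4 tables of TCR contigs. Per the submitters' processing notes the tools include Cell Ranger 4.0.0, STAR 2.7.5c, bcl2fastq 2.20, Seurat and R 4.1.2, with build mm10. The roles of these tools and the annotation are not stated. Coordinates are RefSeq's for GRCm38.p6, and gene symbols are those of the files.

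Counts were summed per class and day with Python 3.11.15 and scipy 1.17.1 and scaled to CPM. Log2 ratios carry exact 95% intervals for 2 Poisson counts. Where 1 of the sums was 0, 3 counts over the whole class took its place and the ratio is a bound; pairs of sums with 3 or fewer each got no ratio. Shares carry Clopper-Pearson intervals. Shares of cells with a UMI were taken after thinning each cell to 5000 UMIs, with the unthinned share beside them for Gzmb. The ratios were tested on simulated data. Doublets were not called, and the multiplexing tags were used only to check the contig sets.

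The rule for the cells, the gene lists and the marker lists were chosen with earlier results of these data known. Genes named are the list genes called at day 19, some of those called in the other comparisons, a few list genes of known role, and the highest and lowest by log2 ratio among genes whose 2 sums held at least 100 UMIs together: 12 and 12 at day 19, with the same direction in every contig set with at least 20 cells of each class, 5 and 5 at day 13, and 6 and 6 between the days. TCR, immunoglobulin, ribosomal, mitochondrial, Gm, Rik, Xist and Y-linked genes and the genes of the rule were left out of the ranks. Of the progenitor list and the 12 lowest genes at day 19, 1 gene is not reported here; it stays in the counts over all genes. The 5 day-19 clones with the most Gzmc/Gzmf+ cells were followed. Alternatives changed the UMI minimums, the mitochondrial limit, the comparison cells, the sets, the weighting of clones, the scaling and the gene filter.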

Additional observations from a re-analysis of the deposited data

Results flagged for a closer look

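CD8 barcodes outside the contig sets were in no comparison, and at day 19 some of them met the rest of the rule, 26 of 366 (7.10%, 95% interval 4.69 to 10.2). Of 314 barcodes outside the sets that had no RNA of CD3, CD8 or CD4 genes, 9 had at least 3 UMIs of Gzmc and Gzmf (2.87%, 1.32 to 5.37), at a median depth of 9603.5 gene UMIs. The lower bound in CD8 barcodes lay above the other share, but the 2 intervals overlap. At day 13 the counts were 10 of 1360 and 6 of 917.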

How the results depend on the processing

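With 1 capture per day, no alternative stands in for a replicate, and the 14 day-13 cells limit every day-13 value. Of 1652 values of 94 gene results under the alternatives, 1187 stayed within the counting interval and 450 moved beyond it. Another 15 changed sign, 6 of them among the 1019 values of day 19. Sign changes were counted apart only for results at 2-fold or more. Smaller results that changed sign are among the 1187 or the 450. A further 6 had no value because a sum was 0 and its 3 counts bounded nothing: Apoe at day 13 and between the days without barcodes with macrophage RNA, Gzmg between the days without set 2, and Naaa at day 13 under 3 alternatives. Such bounds are in no count of genes. The causes were not tested.

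Gene values here are log2 ratios. With at least 5 UMIs of Gzmc and Gzmf, the day-13 share was 0.203%, 585 genes were higher at day 13 and 307 between the days, and Xcl1 at day 13 was -0.40. With at least 8000 gene UMIs the day-19 share was 13.6%. With the rule applied after thinning, Prf1 between the days was -0.30. With any Mki67 in the Pdcd1+ cells, 581 genes were lower at day 19. With Pdcd1 required of the Gzmc/Gzmf+ cells, Klra7 at day 13 was at 0 UMIs, with a bound of -0.075. Without barcodes with macrophage RNA, 179 genes were lower at day 19, C1qa at day 13 was 0.23, and Lyz2 between the days was -0.51.

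Leaving out 1 contig set at a time gave shares of 0.378% to 0.558% at day 13 and 5.38% to 10.8% at day 19, with 32 to 47 genes higher and 120 to 322 lower at day 19. It gave 287 to 348 higher and 736 to 871 lower at day 13, and 89 to 207 higher and 45 to 171 lower between the days. Clone shares were 33.3% to 50% at day 13 and 72.7% to 84.0% at day 19, and 4 to 6 tags were higher. The lowest day-19 share and lower count, and both lowest counts between the days, were without set 2, where between the days Il1b was at least 2.19 (down to -3.40 without another set), Isg15 was 0.29 (down to -3.11) and Ms4a4c was 1.196 (down to -4.11). Without set 4, Sct at day 19 was 1.70, and without set 1 it was -6.29.

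With 1 cell per clone and class, 169 genes were lower at day 19, 181 higher at day 13, and 44 higher and 38 lower between the days, and Gzma at day 19 was -0.011. With Pdcd1+ cells of clones that held a Gzmc/Gzmf+ cell, 28 genes were higher and 77 lower at day 19, and Lef1 and S1pr1 were 1.58 and 1.16. In the mean of the ratios of sets 1 and 2, Isg15 at day 19 was 0.13.

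With at least 30 UMIs per gene, 124 genes were higher and 699 lower at day 19, 772 higher at day 13, and 645 higher and 653 lower between the days. With 300, these were 21 and 101 at day 19, 61 and 369 at day 13, and 44 and 31 between the days. By the mean centred log ratio 0 tags were higher.

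Chosen after seeing the data were 3 more. In clones that held both classes 9 genes were higher and 58 lower at day 19, on fewer cells, and Ifit1 was 0.41. Against Pdcd1+ cells with Havcr2, 20 were higher and 188 lower at day 19, and 56 and 358 at day 13. Without the barcode with the most UMIs of each gene, 55 were higher and 1663 lower at day 13, 481 higher and 42 lower between the days, Il1b between the days was at least 1.16, and 1 tag was higher.

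No paired analysis was possible because the labels give 1 capture per day and tie neither the multiplexing tags nor the contig sets to mice; within a capture the classes were compared by contig set and by clone, as a description.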
